A study of Mus musculus with 9 samples.

Results

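The core circadian clock was followed through single-cell RNA counts of mouse thyroid by its genes Per1, Per2, Per3, Cry1, Cry2, Arntl (also called Bmal1), Clock, Npas2 and Nfil3, 9 of the 52636 genes in the count table. They were chosen by name as parts of the clock loop, with earlier results of these data in view. The values that helped to choose them were those of the main thyrocyte label, Th1, and of the main endothelial label, EC1, after ligand blockade. Those values, and every difference with one of them or with the EC1 ligand blockade samples on one side, are given for the 9 genes as a description, without a p-value. Adjusted p-values of the 9 genes are printed for the other comparisons only. Those comparisons use the same pools of mice, so they are not independent of the choice.

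The thyroids came from male C57BL/6 mice, 10 to 14 weeks old per the treatment protocol and 10 to 12 weeks old per the series' design text. Each of 9 samples pooled the thyroids of 6 mice, 7 days after 1 intraperitoneal injection of antibody. The study compared blockade of Notch ligands with blockade of Notch receptors, which pass signals between touching cells. Control mice (group RW) received an antibody against ragweed, a plant antigen, at 40 mg/kg. The ligand blockade (group aJ1aJ2) combined antibodies against Jag1 and Jag2 at 20 mg/kg each. The receptor blockade (group aN1aN2) combined an antibody against Notch1 at 5 mg/kg with one against Notch2 at 10 mg/kg. Each group had 3 samples, and no group without an injected antibody is used here. The numbers in the sample titles fall into 3 ranges, called series A (RW 3, aJ1aJ2 1), series B (RW 1, RW 2, aJ1aJ2 3, aJ1aJ2 4) and series C (aN1aN2 1, 2 and 3). Receptor blockade and series C coincide in every sample and cannot be told apart. The hour at which the thyroids were taken is not given in the sources used here.

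The clock of mammalian cells is a daily feedback loop of transcription. Arntl pairs with Clock, or with its relative Npas2, and the pair switches on the Per and Cry genes, whose proteins in turn block the pair. Side loops run through the nuclear receptors Nr1d1, Nr1d2 and the Ror family, which act on Arntl, Npas2 and Nfil3, and through the factors Dbp, Tef and Hlf, whose target sites Nfil3 represses. In most tissues the transcripts of Arntl and Npas2 therefore peak at hours of the day when those of Dbp, Per3 and the Nr1d genes are low.

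The promoters of Per3, Per1 and Cry1 are shown because, of the genes with a window, these 3 held an E-box or a D-box. RefSeq promoter windows (GRCm38.p6) were at hand for 8 of the 9 genes, and the 250 bases before the start were searched on both strands. The motifs were the E-box CACGTG, which the Arntl pair binds, the D-box TTATGTAA or TTACGTAA, bound by Dbp, Tef, Hlf and Nfil3, and the Ror and Nr1d element AAGGTCA or TAGGTCA. No motif contains another. Capitals mark the matches, and each sequence runs 5′ to 3′ on the strand of its gene.
Per3, chr4:151044666-151044915, minus strand: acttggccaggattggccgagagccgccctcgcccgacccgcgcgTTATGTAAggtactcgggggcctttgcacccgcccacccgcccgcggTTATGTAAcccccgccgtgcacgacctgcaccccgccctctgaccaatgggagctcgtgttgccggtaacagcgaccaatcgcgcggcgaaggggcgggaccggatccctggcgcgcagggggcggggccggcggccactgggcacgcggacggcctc
Per1, chr11:69098699-69098948, plus strand: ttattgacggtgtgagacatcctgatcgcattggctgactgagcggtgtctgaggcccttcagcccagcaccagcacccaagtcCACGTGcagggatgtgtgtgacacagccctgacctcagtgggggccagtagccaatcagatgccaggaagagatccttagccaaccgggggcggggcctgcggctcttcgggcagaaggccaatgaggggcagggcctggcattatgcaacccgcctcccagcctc
Cry1, chr10:85185055-85185304, minus strand: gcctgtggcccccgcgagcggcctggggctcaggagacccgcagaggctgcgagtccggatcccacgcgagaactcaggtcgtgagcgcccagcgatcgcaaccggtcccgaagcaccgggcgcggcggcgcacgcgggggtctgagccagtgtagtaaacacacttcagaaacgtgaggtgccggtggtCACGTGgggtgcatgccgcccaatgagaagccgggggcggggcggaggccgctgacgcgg

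The Per3 window held 2 D-boxes, at 205 and 158 bases before the start. The upstream window of Per1 held an E-box 166 bases before the start, and that of Cry1 an E-box 60 bases before it. Nfil3 had a match to the Ror and Nr1d element 12 bases before its start. The windows of Arntl, Clock, Cry2 and Npas2 held none of these letters. Over 32851 windows of the same length, 6.02% held the E-box, 0.931% a D-box and 6.18% the Ror and Nr1d element, so a match alone is a description of the letters.

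The table held 10186 cells and 63121420 unique molecular identifiers (UMIs, 1 per captured RNA molecule), with 3013324 to 11880793 UMIs per sample. Levels are CPM: the UMIs of a gene summed over the cells of 1 label in 1 sample, scaled to a common total by that sum's TMM-adjusted library size. With the cells of all samples pooled, each of the authors' labels had its own cell type's list as its highest marker list: the thyrocyte list (with Tg, Pax8 and Tshr among its genes) reached 94330 CPM in Th1, the endothelial list led in EC1 to EC4 and the fibroblast list in F. Within groups this did not always hold: smooth muscle and pericyte markers had a median of 4625 CPM against 2986 CPM for endothelial markers in EC2 of aN1aN2, and of 3479 against 3229 CPM in EC3 of RW. Erythroid markers reached 17779 CPM in 1 RW sample of EC1, where the endothelial sums of RW were at most 13393 CPM, and ran from 449 to 17779 CPM over the EC1 samples. They reached 9413 CPM in 1 aJ1aJ2 sample of EC2, and thyrocyte markers 6094 CPM in 1 RW sample of EC3. Neutrophil markers reached 68389 CPM in 1 sample of Th2, a label in which no gene was tested. Cells were shallower with receptor blockade: the median Th1 cell had 12535 to 22558 UMIs in RW samples, 9968 to 15314 in aJ1aJ2 and 5737 to 7558 in aN1aN2. In Th1, 35.3% of cells had a Per1 UMI (95% exact binomial interval 32.6% to 38.1%) and 50.1% a Clock UMI. Among erythroid cells (Eryth1, 997 cells with a median of 1682 UMIs), at most 3 cells had a UMI of any of the 9 genes. Cell barcodes found in more than 1 library numbered 15.

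In Th1 thyrocytes, the hormone-making follicle cells, Per3 and Cry2 were called higher in both antibody groups than in controls, and Per1 and Per2 with receptor blockade. Arntl and Npas2 were lower with ligand than with receptor blockade. Of the 9 genes, 8 passed the filter on low counts. With ligand blockade 2 were called (adjusted p under 0.05 over all genes), where 0.612% of 10627 genes were called. With receptor blockade 5 were called, where 34.4% of genes were, and between the blockades 3 were called, where 22.3% were. Since these values chose the genes, nothing is read from the counts.

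Per3, a Period gene whose protein joins the inhibitory complex, stood at 4.66, 8.77 and 14.4 CPM in RW 1, 2 and 3. In aJ1aJ2 1, 3 and 4 it stood at 21.0, 43.7 and 44.3 CPM, and in aN1aN2 1, 2 and 3 at 31.8, 38.8 and 43.5 CPM. Every antibody sample lay above every control, and aJ1aJ2 1 was the nearest to the controls. The log2 change was 1.95 ± 0.33 (SE) with ligand blockade and 1.96 ± 0.35 with receptor blockade. Leaving out RW 2, aJ1aJ2 3 or aJ1aJ2 4 ended the call for ligand blockade, with changes of 1.92, 1.76 and 1.82, as did fitting only the 2 groups compared (1.95). Without RW 3 both changes were 2.66, and without series A they were 2.92 and 2.68.

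Per1, a Period gene that also answers rapidly to hormones and other stimuli, was highest with receptor blockade. It measured 16.6, 25.6 and 13.3 CPM in RW 1, 2 and 3, and 33.3, 27.0 and 28.0 CPM in aJ1aJ2 1, 3 and 4. The aN1aN2 samples held 56.5, 73.3 and 50.8 CPM. The 3 groups did not overlap. Receptor blockade exceeded the control by 1.85 ± 0.21 on the log2 scale and ligand blockade by 1.07 ± 0.20, while ligand blockade against control gave 0.78 ± 0.21 and was not called, except with no filter on low counts (0.76).

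Per2, the Period gene whose loss disturbs daily rhythms most clearly in mice, split the controls. RW 1 and RW 2 held 3.77 and 4.05 CPM, and RW 3 held 14.6 CPM. All antibody samples lay above RW 3, between 16.3 and 20.3 CPM. The log2 change was 1.11 ± 0.37 with ligand blockade, not called, and 1.17 ± 0.39 with receptor blockade, called. That call was lost without RW 1, RW 2 or any 1 of the aN1aN2 samples, with changes from 0.76 to 1.22. Without RW 3 the changes were 2.22 with ligand blockade, then called, and 2.29 with receptor blockade, and without series A they were 2.16, called, and 2.29. With no filter on low counts the ligand blockade change was also called (1.10).

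Cry2, a Cryptochrome that represses the Arntl pair, was the steadiest of the genes in the controls, at 11.5, 10.8 and 10.7 CPM. The ligand blockade samples held 18.8, 27.5 and 28.6 CPM and the receptor blockade samples 35.7, 35.7 and 33.8 CPM. No group overlapped another. The log2 changes from control were 1.19 ± 0.18 and 1.67 ± 0.19, and without aJ1aJ2 3 the former was 1.09 and not called. Cry1, the other Cryptochrome, held 4.68 to 9.45 CPM in controls, 3.96 to 4.67 in aJ1aJ2 and 5.45 to 12.1 in aN1aN2, and was called in no contrast. Its difference between the blockades, 1.14, was called without aN1aN2 2 (1.48) and with no filter on low counts (1.11).

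Arntl, the partner that every activating pair needs, ran the other way. It stood at 27.1 and 35.1 CPM in RW 1 and RW 2 but at 8.39 CPM in RW 3. In aJ1aJ2 1, 3 and 4 it stood at 5.92, 5.12 and 4.67 CPM, below all controls, and in aN1aN2 1, 2 and 3 at 13.7, 15.8 and 20.6 CPM. Ligand blockade against control gave -2.04 ± 0.45 on the log2 scale, which was not called, although 7 of 14 alternative analyses called it. Receptor blockade exceeded ligand blockade by 1.61 ± 0.51, a call that was lost on leaving out any sample of either group except aJ1aJ2 1 (1.49 to 1.75) and with the same number of Th1 cells in every sample (1.21). Receptor blockade against control gave -0.42, not called, but -0.91 without RW 3 and -0.90 without series A, both called.

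Npas2, the relative of Clock, held 20.9, 18.9 and 6.63 CPM in RW 1, 2 and 3. It was lowest on average with ligand blockade, as Arntl was, but its receptor blockade mean was 21.6 CPM against 15.5 CPM in controls, where Arntl had 16.7 against 23.5 CPM. The values were 8.07, 7.45 and 4.08 CPM in aJ1aJ2 1, 3 and 4, and 24.1, 18.8 and 21.8 CPM in aN1aN2 1, 2 and 3. RW 3 lay among the ligand blockade samples, and the 2 blockade groups did not overlap, with a log2 difference of 1.67 ± 0.41. Ligand blockade against control gave -1.11, not called, but it was called without RW 3 (-1.56), without series A (-1.66) and with no filter (-1.12). Clock held 79.2, 79.0 and 52.1 CPM in controls, 49.5 to 57.8 in aJ1aJ2 and 41.2 to 52.1 in aN1aN2. The log2 change with receptor blockade was -0.59 ± 0.18, called, and the call was lost without RW 1, RW 2 or aN1aN2 1 (-0.45, -0.52 and -0.51) and with the same number of Th1 cells (-0.64). Nfil3, the repressor of D-box genes, had only 20 UMIs in 1169 Th1 cells and did not pass the filter. Its 13 control UMIs lay mainly in RW 1 (9 UMIs), and no aJ1aJ2 sample had any, where 3 UMIs would have made 0.698 to 1.75 CPM.

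**Figure D1:**
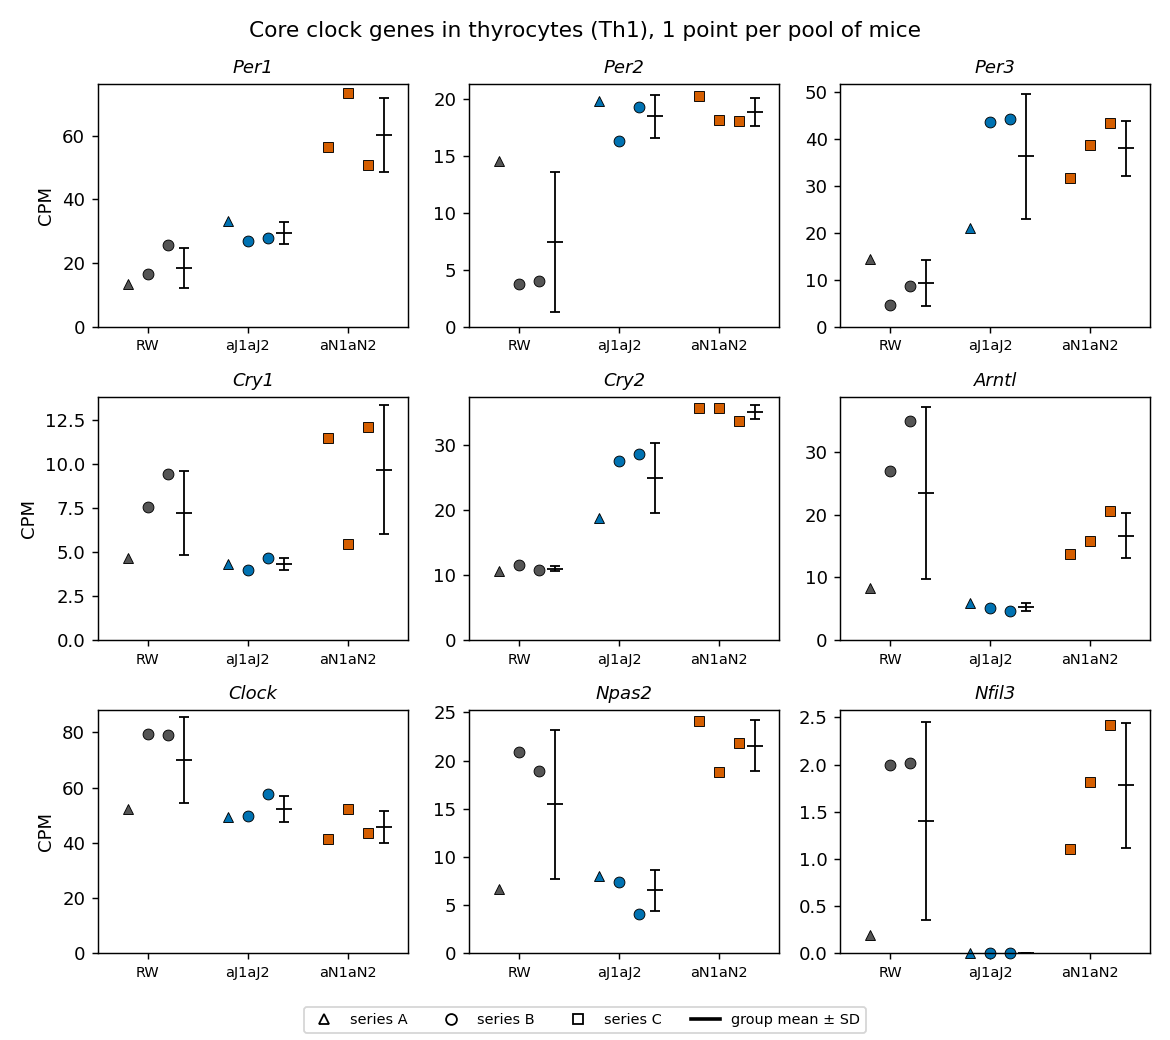
Level of each of the 9 genes in Th1 thyrocytes (CPM, vertical axis from 0) in the 3 groups; each point is 1 pool of mice, its shape gives the series of sample numbers, and the cross and bar give the group mean ± SD (n = 3). RW 3, the triangle among the controls, lies with the ligand blockade samples for Npas2, at 6.63 CPM, and apart from the other controls for Per2, at 14.6 CPM.

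Because depth differed between the groups, shares of Th1 cells were also taken at 1 depth. After each Th1 cell was thinned to 5000 UMIs, 5.77% to 13.0% of control cells, 11.2% to 11.8% of aJ1aJ2 cells and 23.5% to 26.9% of aN1aN2 cells kept a Per1 UMI. Before thinning the shares were 31.1% to 33.3%, 23.9% to 38.9% and 38.7% to 46.9%. Cells with fewer UMIs were left out, 18 of the RW cells, 37 of the aJ1aJ2 cells and 133 of the aN1aN2 cells. Thinned shares with an Arntl UMI were 4.48% to 14.7% in RW, 1.69% to 2.88% in aJ1aJ2 and 6.44% to 10.6% in aN1aN2. The marker lists of other cells also moved in Th1: the sum of the 5 endothelial markers ranged over 364 to 499 CPM among controls and 76.8 to 390 CPM with receptor blockade. The 4 Schwann markers summed to 225 to 248 CPM among controls, 163 to 198 CPM with ligand blockade and 87.1 to 99.1 CPM with receptor blockade, with Sox10 at 0. The thyrocyte list itself summed to 89412 to 96616 CPM among controls and 97818 to 113441 CPM with receptor blockade, and the 3 parathyroid markers to 6.67 to 38.4 and 96.4 to 237 CPM. Their part in the results was not tested.

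In the EC1 endothelium, Per1 and Per2 were higher with receptor blockade than in controls, while Per3 was lower with receptor than with ligand blockade. Of the 9 genes, 8 passed the filter, all but Npas2. This contrast shares its controls with the ligand blockade contrast that helped to choose the genes. With receptor blockade 2 of them were called higher than in control, where 17.8% of 9369 genes were called. Per2 held 3.32, 4.62 and 4.09 CPM in RW 1, 2 and 3 and 41.2, 34.9 and 19.1 CPM in aN1aN2 1, 2 and 3. It rose by 2.99 ± 0.45 on the log2 scale (adjusted p = 4.49e-05, edgeR quasi-likelihood test over all genes). Per1 held 33.2, 43.9 and 30.4 CPM in controls and 73.2, 83.1 and 92.3 CPM with receptor blockade, a rise of 1.22 ± 0.22 (adjusted p = 0.000452). Neither gene's groups overlapped, and both were called in all 13 alternative analyses run. Clock, at 67.8, 54.7 and 42.7 CPM in controls and 70.9, 83.1 and 60.5 CPM with receptor blockade, differed by 0.40 ± 0.22 and was not called (edgeR adjusted p = 0.24). Cry1 (0.69 ± 0.34, edgeR adjusted p = 0.176) and Arntl (0.62 ± 0.42, adjusted p = 0.341) were not called either.

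Receptor against ligand blockade called 4 of the genes in EC1, where 13.5% of genes were called. The ligand blockade samples on one side of it helped to choose the genes, so nothing is read from this count and the differences are a description. Nfil3 held 1.63, 0.639 and 2.02 CPM in aJ1aJ2 1, 3 and 4 and 11.4, 24.1 and 6.37 CPM in aN1aN2 1, 2 and 3, a log2 difference of 3.27 ± 0.83. These are small counts, 5 UMIs against 16, and without aN1aN2 2 the difference was 2.67 and not called. With only the 2 groups compared, Nfil3 did not pass the filter in this contrast. Arntl held 11.4, 13.4 and 6.06 CPM against 52.6, 32.2 and 44.6 CPM, higher by 2.09 ± 0.50, a call lost without aN1aN2 1. Per1 was higher by 0.99 ± 0.23. Per3 was lower: 45.6, 69 and 51.2 CPM in aJ1aJ2 1, 3 and 4 stood above 11.4, 26.8 and 15.9 CPM in aN1aN2 1, 2 and 3. The log2 difference was -1.67 ± 0.55, and the call was lost without any 1 of aJ1aJ2 3, aJ1aJ2 4 or the aN1aN2 samples (-1.38 to -2.08) and in DESeq2.

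The ligand blockade values in EC1 are again a description, since Cry2 there helped to choose the genes. Cry2 held 3.99, 3.08 and 11.4 CPM in RW 1, 2 and 3 and 11.4, 27.5 and 36.4 CPM in aJ1aJ2 1, 3 and 4. Per3 held 7.98, 6.93 and 38.6 CPM in the controls, so that RW 3 was closer to the ligand blockade samples than to its own group. Per2 held 6.52, 21.1 and 13.5 CPM in aJ1aJ2 1, 3 and 4, above all controls. The log2 changes were 1.99 ± 0.46, 1.5 ± 0.37 and 1.89 ± 0.41, and all 3 were called, where 1.43% of genes were. Each of these calls was lost without RW 1, RW 2, aJ1aJ2 3 or aJ1aJ2 4, with changes from 1.67 to 1.98 for Cry2, 1.17 to 1.59 for Per3 and 1.45 to 1.98 for Per2. The Per3 call was also lost in DESeq2 (1.62) and with only the 2 groups compared (1.51). Cry2 had no value to call in DESeq2, and Per2 had none with only the 2 groups compared, so these calls were lost there too. Without RW 3 the changes of Per3 and Cry2 were both 2.91, and without series A they were 2.98 and 3.11. Arntl held 37.2, 41.6 and 10.9 CPM in controls, a log2 change of -1.47 ± 0.42 that was not called.

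In fibroblasts (F), Nfil3 and Per1 were higher with receptor blockade and Per3 with ligand blockade. Of the 9 genes, 7 passed the filter, all but Cry1 and Per2. Nfil3 held 11.5, 15.1 and 4.75 CPM in RW 1, 2 and 3 and 7.36, 4.13 and 11.7 CPM in aJ1aJ2 1, 3 and 4. In aN1aN2 1, 2 and 3 it held 82.0, 92.9 and 52.4 CPM, above every other sample. It rose by 2.74 ± 0.50 over control (edgeR adjusted p = 0.00072) and by 3.32 ± 0.47 over ligand blockade (edgeR adjusted p = 8e-05). Both calls held in all 11 alternative analyses that fitted the gene. With only the 2 groups compared, Nfil3 did not pass the filter against control, so that call was lost there. The control and ligand blockade sums held 10 and 13 UMIs, so Nfil3 passed the main filter through the receptor blockade samples. These p-values are not free of that selection. Per1 rose over control by 1.46 ± 0.40 (edgeR adjusted p = 0.0131), from 22.6 to 34.6 CPM in controls to 41.9 to 92.9 CPM. This call was lost without RW 2, aN1aN2 1 or aN1aN2 2 (1.31, 1.42 and 1.20). It was also lost with only the 2 groups compared, where Per1 did not pass the filter. Nfil3 and Per1 were the 2 genes called with receptor blockade against control, where 19.8% of 4840 genes were.

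Per3 in fibroblasts was the 1 gene of the 9 called with ligand blockade, where 0.579% of genes were. It held 11.5, 15.1 and 19.0 CPM in RW 1, 2 and 3 and 76.0, 60.6 and 71.8 CPM in aJ1aJ2 1, 3 and 4. The rise was 2.17 ± 0.35 (edgeR adjusted p = 0.00639, or 0.0733 without RW 2). These are the pools whose Th1 and EC1 values helped to choose the genes, so this p-value is not independent of that choice. The control sums held 13 Per3 UMIs, and the gene passed the filter on low counts through the ligand blockade samples. In aN1aN2 1, 2 and 3 Per3 stood at 18.9, 6.63 and 31.4 CPM, on both sides of the controls, with a change of 0.21 ± 0.62 (edgeR adjusted p = 0.873). Cry2 stood at 3.85, 17.6 and 9.50 CPM in controls, 31.9, 41.3 and 45.1 CPM in aJ1aJ2 and 37.9, 46.4 and 21.0 CPM in aN1aN2. Its groups did not overlap with control, yet the log2 changes of 1.78 ± 0.45 (edgeR adjusted p = 0.106) and 1.66 ± 0.58 (edgeR adjusted p = 0.0507) were not called.

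Between the blockades, 4 genes were called in fibroblasts, where 16% of genes were, and Nfil3 above is 1 of them. Npas2 held 4.90, 11 and 11.7 CPM with ligand blockade and 31.5, 53.1 and 73.4 CPM with receptor blockade, higher by 2.31 ± 0.54 (edgeR adjusted p = 0.0061). Arntl held 14.7, 11 and 3.34 CPM against 88.3, 33.2 and 52.4 CPM, higher by 2.62 ± 0.70 (edgeR adjusted p = 0.0148). That call was lost without aJ1aJ2 4 or aN1aN2 1 (2.20 and 2.09). With only the 2 groups compared, neither Npas2 nor Arntl passed the filter in fibroblasts, so both calls were lost there. Per3 was lower by -1.96 ± 0.44 on the log2 scale (edgeR adjusted p = 0.00474, or 0.051 without aN1aN2 2). Compared with ligand blockade, Arntl and Npas2 were thus higher and Per3 lower in the same receptor blockade samples. Against control, receptor blockade gave 0.87 ± 0.63 for Arntl and 0.60 ± 0.48 for Npas2, not called (edgeR adjusted p = 0.374 and 0.429). Ligand blockade against control gave -1.76 ± 0.66 and -1.71 ± 0.48, not called either (edgeR adjusted p = 0.417 and 0.174).

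**Figure D2:**
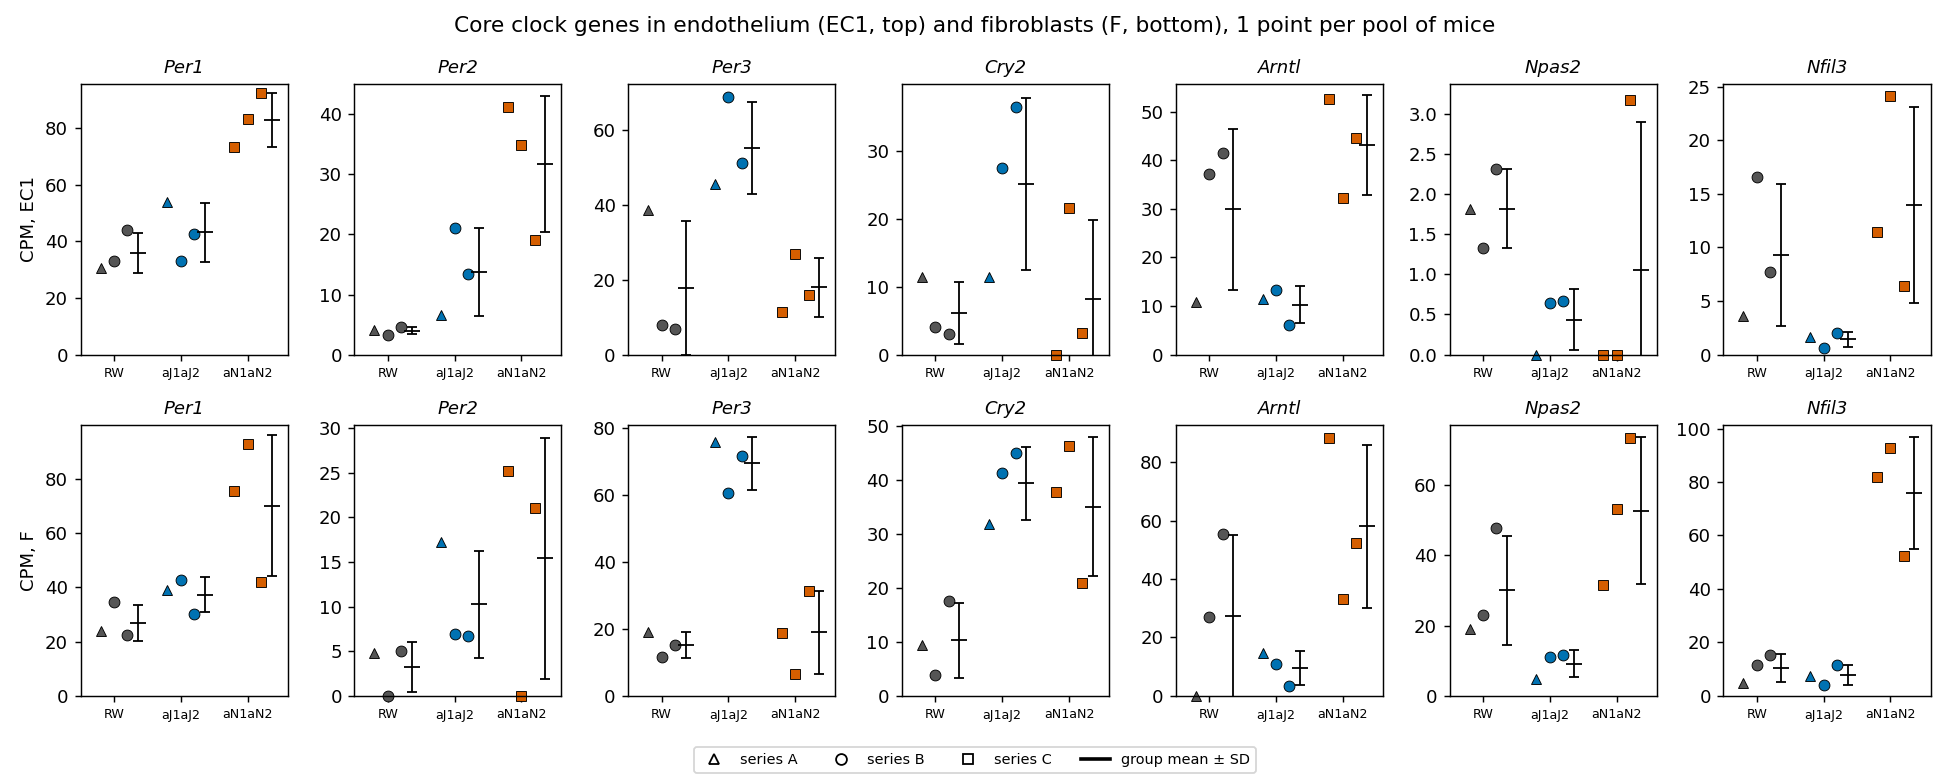
Levels (CPM, vertical axes from 0, bars cut at 0) of 7 of the genes in EC1 endothelium (top) and F fibroblasts (bottom), 1 point per pool of mice, shaped by series, with group mean ± SD (n = 3). Nfil3 in fibroblasts lies between 52.4 and 92.9 CPM in the receptor blockade samples and at or under 15.1 CPM in all others.

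Marker sums of several cell types differed with receptor blockade in both labels. The 6 thyrocyte markers summed to 697 to 971 CPM in EC1 of controls, 789 to 1241 with ligand blockade and 1322 to 1942 with receptor blockade. Of the 12 lists there, 5 did not overlap between receptor blockade and control. Besides the thyrocyte list these were the endothelial list (8928 to 9206 CPM against 12319 to 13393 in controls), the macrophage list (5.34 to 9.49 against 71.0 to 183), the parathyroid list (180 to 286 against 38.9 to 71.9, with Gcm2 and Casr at 0) and the C cell list (160 to 219 against 47.1 to 71.0, with Calcb at 0). In F the thyrocyte sums were 331 to 537, 280 to 661 and 504 to 929 CPM, and the 4 erythroid markers summed to 95.9 to 264 CPM in controls and 778 to 37662 CPM with receptor blockade. The fibroblast list summed to 26420 to 28725 CPM in controls and 31344 to 36268 CPM with receptor blockade. The median F cell had 5561 to 10026 UMIs in controls and 2295 to 3864 with receptor blockade. The part of these values in the results was not tested. Nfil3 itself was at most 2.42 CPM in any Th1 sample.

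**Figure D3:**
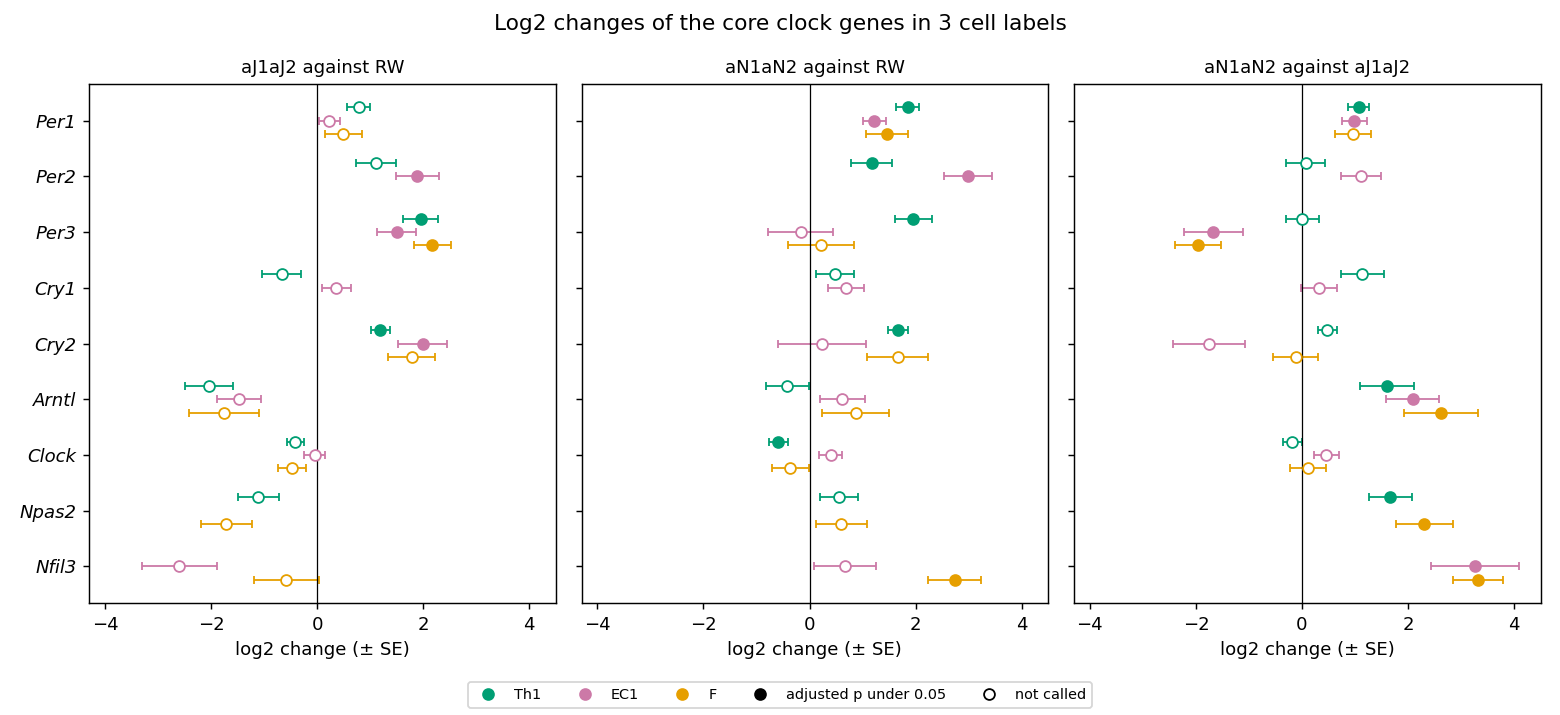
Log2 change ± SE (horizontal axis) of each gene in Th1, EC1 and F for the 3 contrasts; filled points had an adjusted p under 0.05 over all genes of the label, open points did not, and a gene absent from a label did not pass the filter. Per1 is higher with receptor blockade than in control in all 3 labels, from 1.22 to 1.85, while Per3 is 1.96 in Th1 and -0.17 and 0.21 in EC1 and F. The EC1 value of Per3 depends on RW 3, since the receptor blockade samples lay above RW 1 and RW 2 and below RW 3.

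The other labels held few of the genes. Per1, the gene that passed most often, rose with receptor blockade in the endothelial label EC4, from 88.3, 88.9 and 65.9 CPM in RW 1, 2 and 3 to 256, 220 and 152 CPM in aN1aN2 1, 2 and 3. The rise was 1.42 ± 0.38 (edgeR adjusted p = 0.00771, where 21.1% of 3101 genes were called), and without aN1aN2 1 it was 1.24 (adjusted p = 0.0505). In EC3 it rose from 31.9, 24.2 and 32.1 CPM to 103, 63.9 and 69.8 CPM, by 1.39 ± 0.36 (edgeR adjusted p = 0.0328, where 5.91% of genes were called). This rested on 10 to 16 UMIs per sample, and 7 of 12 alternative analyses lost it, among them each that left out RW 1, RW 2 or an aN1aN2 sample (1.19 to 1.54). In EC3 the smooth muscle and pericyte markers summed to 2617 to 4203 CPM in RW and 733 to 921 CPM in aN1aN2, and the endothelial markers to 2542 to 3493 and 3998 to 5171 CPM. In EC4 the endothelial sums were 11883 to 12967 CPM in RW and 10098 to 10568 CPM in aN1aN2, and the erythroid sums 195 to 1028 and 1489 to 2030 CPM. The part of these markers in the Per1 values was not tested. Clock differed from control by 0.13 ± 0.39 in EC3 (edgeR adjusted p = 0.898) and by -0.56 ± 0.38 in EC4 (edgeR adjusted p = 0.343). In EC2, from 2 controls, the change of Per1 was 0.73 ± 0.42 (edgeR adjusted p = 0.285, where 15.5% of genes were called). Per3 in Schwann cells (S) held 12.4 and 55 CPM in RW 1 and RW 3 and 125 and 147 CPM in aJ1aJ2 3 and 4, a change of 2.37 ± 0.85 that did not pass (edgeR adjusted p = 0.383), where 0% of 2070 genes were called. In Th3, M, T1, Eryth1 and Eryth2, none of the 9 genes passed the filter on low counts.

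Among the controls, RW 3 stood apart. In Th1, RW 3 held 3.73 times the mean of RW 1 and RW 2 for Per2 and 2.14 times for Per3, but 0.27 times for Arntl, 0.333 times for Npas2 and 0.659 times for Clock. In EC1 the ratios were 5.18 for Per3, 3.22 for Cry2, 0.277 for Arntl and 0.299 for Nfil3. Compared with the other controls, RW 3 was thus higher in Per3 and lower in Arntl in both labels. In fibroblasts RW 3 had no Arntl UMI in 26 cells, where 3 UMIs would have made 14.3 CPM, and RW 1 and RW 2 held 26.9 and 55.3 CPM.

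Within each series, the ligand blockade changes were of unequal size. In Th1 the ratio of aJ1aJ2 to RW for Per3 was 1.46 in series A and 6.55 in series B, that for Per2 1.36 and 4.55, and that for Cry2 1.76 and 2.52. For Arntl the ratios were 0.706 and 0.157, and for Npas2 1.22 and 0.29. Npas2 was thus on opposite sides of equality in the 2 series. Per1 went the other way, with a ratio of 2.5 in series A and 1.3 in series B. In EC1 the Cry2 ratio was 1 in series A and 9.04 in series B, and that of Per3 1.18 and 8.06. Fibroblasts differed from this, with Per3 ratios of 4 and 4.98 and Cry2 ratios of 3.36 and 4.03. Series A has 1 sample per group, so these ratios have no error. With a block for series A and B, 3 of the genes were called in Th1 with ligand blockade, and without series A 6 were.

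**Figure D4:**
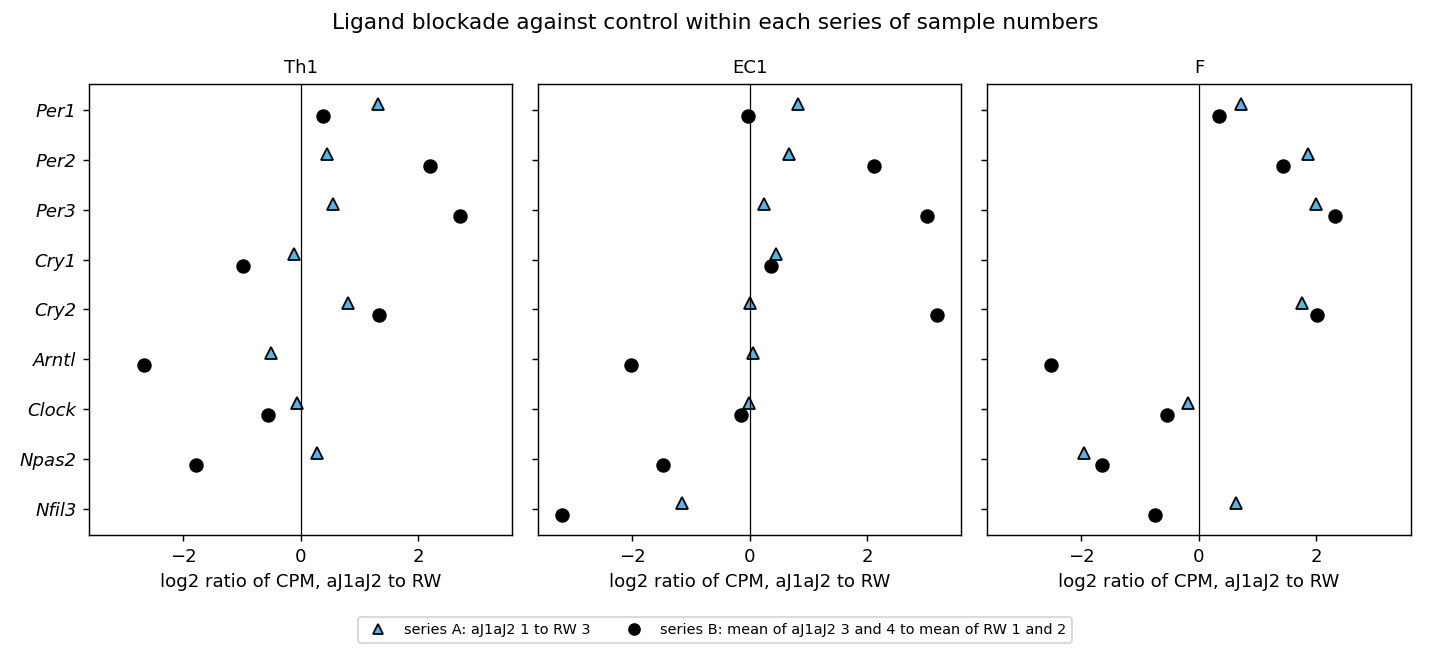
Log2 ratio of CPM of ligand blockade to control (horizontal axis) within series A (triangles, 1 sample per group) and series B (circles, means of 2 samples per group) in Th1, EC1 and F; genes at 0 in a sample used have no point. In Th1 and EC1 the circles of Per3, Per2, Cry2 and Arntl lie farther from 0 than the triangles, and in F those of Per3 and Cry2 lie near each other.

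Per3 and Arntl, from opposite arms of the loop, show how the samples fall. In EC1, the samples with Per3 at 38.6 CPM or more (RW 3 and all aJ1aJ2) held 6.06 to 13.4 CPM of Arntl, and those with Per3 at 26.8 CPM or less held 32.2 to 52.6 CPM. In Th1 the receptor blockade samples departed from this: Per3 was 31.8 to 43.5 CPM, as high as with ligand blockade, beside 13.7 to 20.6 CPM of Arntl. The difference of the Per3 change between EC1 and Th1 was -2.17 ± 0.45 for receptor blockade against control. Its EC1 side depends on RW 3: the receptor blockade samples there, at 11.4 to 26.8 CPM, lay above RW 1 and RW 2 (7.98 and 6.93 CPM). Differences of this contrast between EC1 and Th1 were called for 8.69% of genes, those between the blockades for 4.91%, and those between F and Th1 between the blockades for 3.45%. The Th1 side of each was among the values that chose the genes. Between F and EC1 the smallest edgeR adjusted p among the genes was 0.108, for Nfil3 with receptor blockade against control (2.06 ± 0.75 in F minus EC1).

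**Figure D5:**
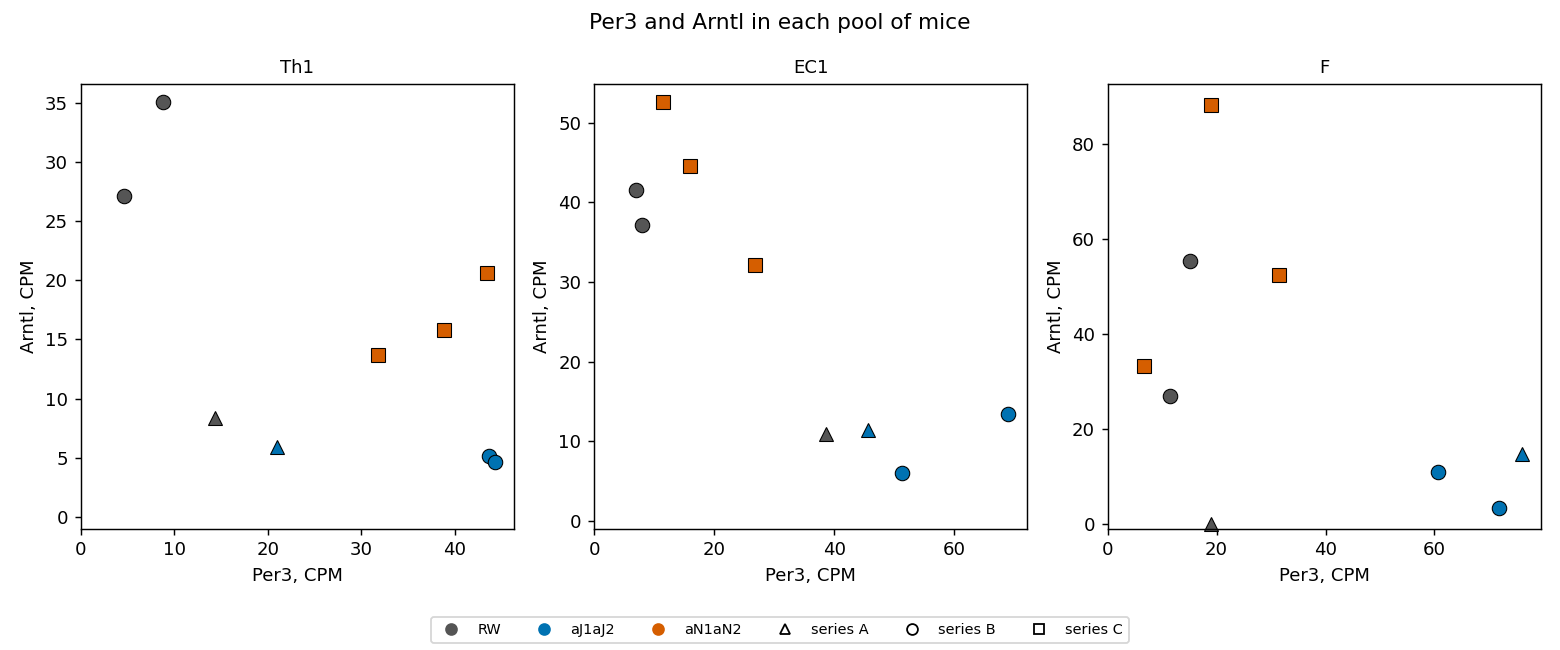
Per3 (horizontal axis, CPM) against Arntl (vertical axis, CPM) in Th1, EC1 and F, 1 point per pool of mice, coloured by group and shaped by series. In EC1 and F the receptor blockade samples lie at 31.4 CPM of Per3 or less, and in Th1 they lie at 31.8 CPM or more.

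Control levels are given for the labels with at least 2 control samples of 20 cells or more. Per1 was highest in EC2 (89.5 ± 34.6 CPM, SD, n = 2) and EC4 (81 ± 13.1, n = 3), which lay within their spread of each other. It was 35.8 ± 7.12 CPM in EC1, 29.4 ± 4.5 in EC3, 27 ± 6.61 in F and 18.5 ± 6.37 in Th1, each overlapping its neighbour in range. Npas2 was 30 ± 15.6 CPM in F and 15.5 ± 7.73 in Th1, which overlapped, but 1.82 ± 0.49 in EC1, below every Th1 sample. Nfil3 was 18.5 ± 2.64 CPM in EC3, 10.5 ± 5.25 in F, 9.31 ± 6.63 in EC1 and 1.41 ± 1.05 in Th1, and of these 4 labels Th1 alone had every control sample under all those of the others. Cry1 was 36.9 ± 1.4 CPM in the T cell label T1, the highest mean among these labels, and 16.3 ± 0.896 in EC1. In T2, with 1 such control sample, it was 49.8 CPM in RW 2. For Clock (109 ± 38.2 CPM in EC4 to 55.1 ± 12.6 in EC1), Arntl (47.3 ± 29 in EC4 to 23.5 ± 13.7 in Th1) and Per3 (33.7 ± 30.1 in S to 9.28 ± 4.89 in Th1), each step in the order of labels was smaller than the larger SD of the pair. Among the endothelial, fibroblast and thyrocyte labels, Per2 lay between 2.01 ± 2.02 CPM in EC3 and 12.3 ± 14.4 in EC4, and Cry2 between 6.16 ± 4.56 in EC1 and 18.9 ± 10.1 in EC4.

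The other genes of the loop that were called after ligand blockade were higher, like Per3. The list of loop partners held 12 genes, of which 9 passed the filter in Th1. It was chosen with earlier results of these samples known, so its Th1 values and those with EC1 ligand blockade on one side are a description, and nothing is read from their counts or medians. With ligand blockade 3 were higher (Tef, Nr1d2 and Hlf, at 1.94, 1.36 and 0.84 on the log2 scale), where 0.612% of all genes were called, and the median was 1.18, against 0.01 over all genes. With receptor blockade all 9 that passed were higher, where 34.4% of all genes were called, with a median of 1.38 against 0.02, among them Tef (2.81 ± 0.26), a D-box activator. In EC1, 5 of 9 were called higher with ligand blockade (Hlf by 1.91, Bhlhe41, a repressor of the Arntl pair, by 1.78, Tef by 1.77, Nr1d1 by 1.48 and Nr1d2 by 1.33), where 1.43% of all genes were called, with a median of 1.48 against 0.01. With receptor blockade 1 was higher there, Tef (1.33 ± 0.44, edgeR adjusted p = 0.0415), where 17.8% were called, with a median of -0.00 against -0.01.

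In EC1 3 of 9 partners were lower with receptor than with ligand blockade, where 13.5% of all genes were called: Dbp (-3.37 ± 0.69), Nr1d1 (-2.40 ± 0.44) and Hlf (-1.92 ± 0.43). In fibroblasts of the same pools, 3 of 8 were higher with ligand blockade (Nr1d1 by 1.68, Nr1d2 by 1.53 and Hlf by 1.5, edgeR adjusted p = 0.0468, 0.0109 and 0.0376), where 0.579% were called. With receptor blockade 1 of 8 was higher there, Rora (0.89 ± 0.26, edgeR adjusted p = 0.0198), where 19.8% were called. Neither this count nor that of EC1 with receptor blockade against control exceeded the share over all genes. Neither is a result about the list. Against ligand blockade 3 of 8 were lower, Dbp (-5.29 ± 1.33), Bhlhe40 (-2.30 ± 0.55) and Nr1d2 (-0.93 ± 0.31), where 16% were called, with a median of -1.01 against -0.02. In Th1 the same differences between the blockades were -0.34 ± 0.50 for Dbp, 0.31 ± 0.29 for Nr1d1 and -0.23 ± 0.19 for Hlf, none of them called.

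Enzymes that modify clock proteins, among them kinases, a phosphatase, ubiquitin enzymes and the deacetylase Sirt1, were a list of 16. In Th1 15 passed the filter, and with ligand blockade edgeR called 0 and DESeq2 0, with 2 at an unadjusted p under 0.05 and a median of 0.11. With receptor blockade 4 were higher, with Csnk1e, Dyrk1a and Usp2 among them, where 34.4% of all genes were called, and the median was 0.33. Usp2, a deubiquitinase that is itself a clock output, changed by 2.00 ± 0.37. In EC1 with receptor blockade, Dyrk1a, a kinase that marks Cry2, was higher and Btrc, part of the ligase that removes Period proteins, was lower. These were 2 of the 13 that passed, where 17.8% of all genes were called. Neither receptor blockade count exceeded the share over all genes, and neither is a result about the list.

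Over the 9 Th1 sums, the genes whose log2 levels ran most like each member were found among 6331 genes with a mean of at least 20 CPM, as a description of points that share libraries and depth. Per2 ran closest to Dbp (Pearson r = 0.991) and Bhlhe41 (0.948). Per3 ran closest to Actn1 (0.986), Nr1d2 (0.973) and Hlf (0.95). The genes nearest to Arntl were the metallothioneins Mt2 (0.971) and Mt1 (0.930). Cry2 was nearest to Maff (0.977) and the cold-inducible RNA-binding gene Rbm3 (0.967), Per1 to Tmem159 (0.957), Clock to Ermp1 (0.959), Npas2 to Ngdn (0.948) and Cry1 to 4632428C04Rik (0.979).

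By position (GRCm38, GENCODE M21), Per1 lies on chr11:69095217-69109960, Per2 on chr1:91415982-91459324, Per3 on chr4:151003652-151044665, Cry1 on chr10:85131700-85185064 and Cry2 on chr2:92403646-92434043. Arntl lies on chr7:113207465-113314126, Clock on chr5:76209868-76304792, Npas2 on chr1:39193731-39363236 and Nfil3 on chr13:52967209-52981073. Per3 overlaps Camta1 on its own strand, Clock overlaps Ube2n-ps1 and Gm43658, and Npas2 overlaps Gm3617. Cry2, Arntl and Npas2 overlap D930015M05Rik, Gm45355 and Gm20428 on the other strand. Whether the counting used strand is not given in the sources used here, so reads of these overlaps are uncertain.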

How the data were processed

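Thyroid cells of 9 pools of mice were profiled with a droplet 3' RNA kit, per the labels' protocols. The authors deposited raw UMI counts per gene and cell for all samples, made with Cell Ranger on GRCm38 per the submitters' processing notes (versions are not given in the sources used here), and a table of cell labels, which was used as deposited. A stray comma displaced the columns of 2619 of its lines, which were realigned. Cells held 500 to 131347 UMIs. How doublets were treated, and how the labels were made, is not given in the sources used here. Symbols matched 52403 of 52636 identifiers, and the other 233 held 0.0293% of UMIs.

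Counts were summed per sample and cell label where at least 20 cells were present, and labels with at least 2 such samples in both groups were tested: 12, 9 and 10 labels for the 3 contrasts. The quasi-likelihood test of edgeR 4.0.16 (R 4.3.3) was fitted over the 3 groups with TMM scaling and filterByExpr, and p-values were adjusted by Benjamini-Hochberg over all genes of a label, with calls under 0.05. Standard errors are the log2 change divided by the root of F. Differences of changes between Th1, EC1 and F were fitted with the sample as a block, a test added after the values had been seen. The fits were tested on simulated data. Replicates are pools of mice, cells are not replicates, and no Th1 replicate pair differed by as little as sampling noise (chi-square per degree of freedom 1.73 to 8.92). Intervals on shares cover counting error only. RW 3 and aJ1aJ2 1 carry no number in their titles, and these numbers are names only.

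The members and the lists were chosen with earlier results of these data known. All 9 genes are named in Th1, and in other labels those with an adjusted p under 0.05 or with at least 30 UMIs in every group, beside genes named for contrast. Alternatives were DESeq2 (1.42.0) and its size factors, no filter, 50 cells per sum, only the 2 groups compared, Th1 with Th3, equal numbers of Th1 cells (62 per sample), blocks, each sample left out and, added after seeing the data, series A left out. Some genes of the lists are not reported here by name.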

Additional observations from a re-analysis of the deposited data

Results flagged for a closer look

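In 5 cases the change of a clock gene differed between cell labels by a test of the difference itself (edgeR with the sample as a block, adjusted over all genes). The Th1 side of each difference was among the values that chose the genes, so these differences are not independent of that choice and are given as a description, without their p-values. For Per3, receptor blockade against control differed by -2.17 ± 0.45 (SE) on the log2 scale between EC1 and Th1, with changes of -0.17 in EC1 and 1.96 in Th1. The EC1 change depends on RW 3. The aN1aN2 samples there held 11.4, 26.8 and 15.9 CPM, above RW 1 and RW 2 (7.98 and 6.93 CPM) and below RW 3 (38.6 CPM). Of 11372 genes, 8.69% were called in this test. For Clock the same difference was 0.93 ± 0.23, with changes of 0.40 and -0.59.

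For receptor against ligand blockade, Per3 differed between EC1 and Th1 by -1.72 ± 0.41 and Cry2 by -2.23 ± 0.64, where 4.91% of genes were called. In EC1 the 3 receptor blockade samples held 0, 8 and 1 Cry2 UMIs. Between F and Th1, Per3 differed by -2.05 ± 0.56, where 3.45% of 10356 genes were called.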

How the results depend on the processing

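With ligand blockade the count of called clock genes in Th1 was 2, and it was 6 with no filter on low counts, 1 with only the 2 groups compared and 6 with series A left out. In the other labels together it was 4, and it was 7 with no filter, 2 with the DESeq2 test, 2 with only the 2 groups and 7 without series A. Leaving out each sample in turn gave 0 to 5 in Th1 (0 without aJ1aJ2 3, 5 without RW 3) and 0 to 7 in the other labels (0 without RW 2, 7 without RW 3). A block for series gave 3 and 5. With receptor blockade the Th1 count of 5 ranged from 3 to 6 on leaving out samples. The count of 6 in the other labels was 3 with at least 50 cells per sum, a setting that fitted 5 labels in place of 8 and left out EC3 and F, which held the other 3 calls. It was 8 with no filter and 4 to 6 on leaving out samples. Between the blockades the Th1 count of 3 was 5 with no filter and 2 to 3 on leaving out samples, and the count of 8 in other labels was 5 with only the 2 groups, 12 with no filter and 6 to 11 on leaving out samples. With only the 2 groups, Nfil3 in EC1 and Npas2 and Arntl in F no longer passed the filter between the blockades, nor did Per2 in EC1 with ligand blockade. The receptor blockade count in the other labels was 4 in that setting, where Nfil3 and Per1 in F did not pass. Apart from these genes and the labels lost at 50 cells, the cause was not tested.

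The sign turned for genes near 0 in Th1 between the blockades. Per3 (0.01) was -0.02 with no filter, -0.24 without aJ1aJ2 1, -0.01 without aN1aN2 2, -0.07 without aN1aN2 3 and -0.24 without series A, and leaving out samples gave -0.24 to 0.20. Per2 (0.07) was -0.04 without aJ1aJ2 3 and -0.00 without aN1aN2 1, in a range of -0.04 to 0.13. With a replicate block on the numbers that RW 1, RW 2, aN1aN2 1 and aN1aN2 2 share, receptor blockade against control called 6 in Th1 and 5 in other labels. The numbers did not pair the samples: deviations of same-numbered samples correlated at 0.024 and -0.013. Nfil3 in Th1 rests on 20 UMIs. Few of the genes passed the filter on low counts in EC2, EC4, S and SM, so the others were not tested there.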

Other observations

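Some values lie outside the comparisons because the gene did not pass the filter on low counts in that label. Per3 in the endothelial label EC2 held 23.6 and 31.1 CPM in RW 1 and RW 2, 76.5 and 67.3 CPM in aJ1aJ2 3 and 4, and 12.9, 30.1 and 0 CPM in aN1aN2 1, 2 and 3. In EC4 Per3 held 17.7, 0 and 37.7 CPM in RW 1, 2 and 3, 0, 80.4 and 69.6 CPM in aJ1aJ2 1, 3 and 4, and 11.1, 15.2 and 9.52 CPM in aN1aN2 1, 2 and 3. These values rest on 0 to 26 UMIs per sample and were not tested. Per3 passed the filter in EC3, where it held 16, 14.1 and 34.7 CPM in RW 1, 2 and 3, 43.8 and 53.5 CPM in aJ1aJ2 3 and 4, and 17.2, 6.39 and 14 CPM in aN1aN2 1, 2 and 3. The edgeR adjusted p was 0.543 for ligand blockade against control (log2 change 1.19 ± 0.45), with RW 3 again the highest control.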
